A study of Mus musculus with 2 samples.

Results

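The genes examined here encode subunits of the mitochondrial respiratory chain and of ATP synthase in mouse CD8+ T cells. They were taken from the annotated gene symbols alone: every gene whose symbol starts with Nduf followed by a, b, c, s or v, with Uqcr, with Cox followed by a digit from 4 to 8, or with Atp5, together with Sdha to Sdhd, and with a value on both arrays. The rule found 81 of the 14150 singly named genes that had a value on both arrays. By known role, 30 of them are subunits of complex I, 3 of complex II, 8 of complex III, 16 of complex IV and 16 of complex V. The other 8 are 6 assembly factors of complex I, which carry an Ndufaf symbol, and 2 annotated pseudogenes, Atp5k-ps1 and Ndufs5-ps, and these are kept apart below. Ndufa4 is counted in complex IV, where its protein is now placed, although its symbol names complex I.

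Gene expression was compared between effector CD8+ T cells after 2 and after 1 stimulation in culture. Donor animals were pmel transgenic mice, in which CD8+ T cells bear a receptor against the melanocyte antigen gp100. Each of 2 arrays, the second described as a repeat, held total RNA of cells after 2 stimulations in channel 2 and of cells after 1 stimulation in channel 1. The channels were not swapped between the arrays, so a bias of a probe towards either channel would keep its sign on both. Such a bias cannot be told from a difference between the stages. Whether the repeat came from a new culture is not given, so errors and p-values measure only the spread between these arrays, which may be technical. Mouse age, the peptide and cytokines of the culture and the interval between stimulations are not given in the sources used here.

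Values are log ratios between the channels, taken as log2, with the numerator not stated. The order of the titles points to a ratio of 1 stimulation over 2, but the order of the channels does not settle it. In that reading a negative value is more RNA after 2 stimulations and a positive value more RNA after 1 stimulation. With the opposite order the sides swap, so results are given as the negative and the positive side. A ratio holds no level, so genes cannot be ranked by abundance, and the cells cannot be checked against the presence of their markers. Spot intensities were not used here, and with 2 arrays their number limits the precision of each ratio.

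The respiratory chain sits in the inner mitochondrial membrane. Complex I takes electrons from NADH and complex II takes them from succinate; both pass them to coenzyme Q. Complex III hands them on to cytochrome c and complex IV to oxygen. Complexes I, III and IV pump protons, and complex V, the ATP synthase, lets the protons flow back to make ATP. Most subunits are encoded in the nucleus, while the mitochondrial genome encodes membrane subunits of complexes I, III, IV and V. Activated T cells are known to build up mitochondria while they also raise glycolysis.

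Promoters of nuclear respiratory genes are known to carry sites for NRF1 and for GABP, an ETS factor, so the promoters are shown before the values. Of the 81 genes, 64 matched a promoter in a RefSeq table of build GRCm38.p6, and the window searched ran from 250 bases before to 30 bases after the transcription start. The NRF1 motif was spelled CGCANGCGC and read on both strands, so that a palindromic site matches on each strand. It was found in 30.4% of the 69 windows of these genes, 6.01% of the 32851 windows of all genes in the table and 9.59% of the 13796 windows of genes measured on the arrays. The ETS motif CCGGAAG was in 21.7%, 8.45% and 12.4% of the same windows, and the YY1 motif AAGATGGC in 5.8%, 2.29% and 2.75%. Different motifs do not overlap in the windows shown. In all, 20 genes held an NRF1 match, and the gene with the lowest mean log ratio among them is shown for each complex, with matches to any of these motifs in capitals.
Ndufa5, complex I, chr6:24527497-24527776, minus strand: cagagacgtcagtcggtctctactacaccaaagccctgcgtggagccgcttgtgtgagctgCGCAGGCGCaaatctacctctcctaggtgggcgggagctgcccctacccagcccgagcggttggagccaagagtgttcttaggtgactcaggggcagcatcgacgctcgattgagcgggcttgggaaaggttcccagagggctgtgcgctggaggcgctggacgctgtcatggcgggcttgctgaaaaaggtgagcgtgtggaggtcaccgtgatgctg
Sdha, complex II, chr13:74350211-74350490, minus strand: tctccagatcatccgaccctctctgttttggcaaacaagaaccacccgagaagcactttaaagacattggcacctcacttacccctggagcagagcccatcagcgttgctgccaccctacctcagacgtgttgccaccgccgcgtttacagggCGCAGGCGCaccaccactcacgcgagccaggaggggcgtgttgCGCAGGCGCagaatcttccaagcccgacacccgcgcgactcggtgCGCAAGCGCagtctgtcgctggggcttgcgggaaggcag
Uqcr11, complex III, chr10:80406792-80407071, minus strand: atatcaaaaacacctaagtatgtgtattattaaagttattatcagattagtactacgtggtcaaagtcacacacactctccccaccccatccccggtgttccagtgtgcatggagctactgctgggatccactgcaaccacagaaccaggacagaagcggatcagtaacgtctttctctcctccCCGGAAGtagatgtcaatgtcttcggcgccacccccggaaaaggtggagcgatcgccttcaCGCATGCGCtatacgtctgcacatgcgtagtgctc
Cox6a1, complex IV, chr5:115348929-115349208, minus strand: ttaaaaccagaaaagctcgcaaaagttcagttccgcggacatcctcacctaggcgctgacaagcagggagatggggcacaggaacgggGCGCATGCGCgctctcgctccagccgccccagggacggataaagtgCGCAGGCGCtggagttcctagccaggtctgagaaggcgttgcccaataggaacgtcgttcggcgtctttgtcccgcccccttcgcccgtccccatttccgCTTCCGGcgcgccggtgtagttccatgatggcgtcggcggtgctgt
Atp5o, complex V, chr16:91931601-91931880, minus strand: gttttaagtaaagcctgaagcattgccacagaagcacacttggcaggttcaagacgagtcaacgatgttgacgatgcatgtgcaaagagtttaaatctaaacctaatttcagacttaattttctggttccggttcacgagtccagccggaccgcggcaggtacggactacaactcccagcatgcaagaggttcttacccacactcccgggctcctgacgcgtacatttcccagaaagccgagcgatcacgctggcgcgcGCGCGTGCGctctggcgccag
The Sdha window held 3 separate NRF1 matches. The Cox6a1 window held NRF1 letters at a palindromic site and at a second site, with an ETS match nearer the start, and the Uqcr11 window held an ETS and an NRF1 match. Windows of genes that were negative on both arrays held the NRF1 motif in 35.6% of 45 cases, those of genes positive on both in 14.3% of 7, and those whose sign differed in 23.5% of 17, counts too small to compare. A match is a string of letters and not a shown binding site. At the ends of the complexes described below, the windows of Cox5a and Cox7a2l in complex IV, Ndufab1 and Ndufa6 in complex I, Uqcrfs1, the highest gene of complex III, and Atp5b, the lowest of complex V, held none of these motifs as spelled. Those of Sdhb, the lowest gene of complex II, and of Atp5md, the highest of complex V, held an ETS match, and Atp5md also an NRF1 match.

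Most respiratory chain genes lay on the negative side of the ratio by a small amount. Of the 81 genes, 52 (64.2%) were negative on both arrays, where 33.6% of all genes were, and 8 (9.88%) were positive on both, where 29.6% of all genes were. The sign differed between the arrays for 21. The median of the gene means was -0.24, with -0.14 on array 1 and -0.29 on array 2, while the median over all genes was -0.02. Without array 2 the median is thus smaller in size by more than 1.5 times, and the same holds for complexes I, IV and V below. The lowest gene was Cox5a at -1.07 and the highest Cox7a2l at 0.575, and 13 genes had a mean of -0.5 or below, against 1 gene at 0.5 or above.

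No respiratory chain gene was at least 2-fold from a ratio of 1 on both arrays on the same side, as 0.721% of all genes were on the negative side and 0.233% on the positive side. On array 2 alone 5 genes were that far from 0, namely Cox5a, Ndufaf2, Ndufa4, Atp5b and Ndufab1, and on array 1 alone none was. At 1.5-fold on both arrays there were 2, Cox5a and Ndufa1. In limma's moderated test over 21427 probes 0 of the 82 probes of these genes passed an adjusted p of 0.05, and 0.0% of all probes did. By the unadjusted p under 0.05, 19 probes (23.2%) stood out on the negative side and 1 (1.22%) on the positive side, where 8.0% and 6.87% of all probes did. limma with a robust prior also called 0, and the test without moderation called 1, Uqcrq, whose values were identical on the arrays. The smallest limma adjusted p among these genes was 0.171, so single genes are described below by size and by their values on both arrays.

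Every gene but Atp5md rests on 1 probe. The median half-width of limma's 95% interval was 0.396 for these probes, wider than most of the values. As a measure of scatter within an array, the 153 probes annotated to the glycolytic gene Gapdh had an SD of 0.112 on array 1 and 0.0525 on array 2. Those Gapdh probes averaged -0.324 on array 1 and 0.134 on array 2, so a gene measured many times still differed between the arrays. Of the 81 genes, 52 read lower on array 2 than on array 1, with a median difference of -0.15 (array 2 minus array 1), against -0.01 over all genes. Across the 81 genes, which share their arrays and are not replicates, the arrays correlated with Pearson's r = 0.478, against 0.519 across all genes.

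**Figure D1:**
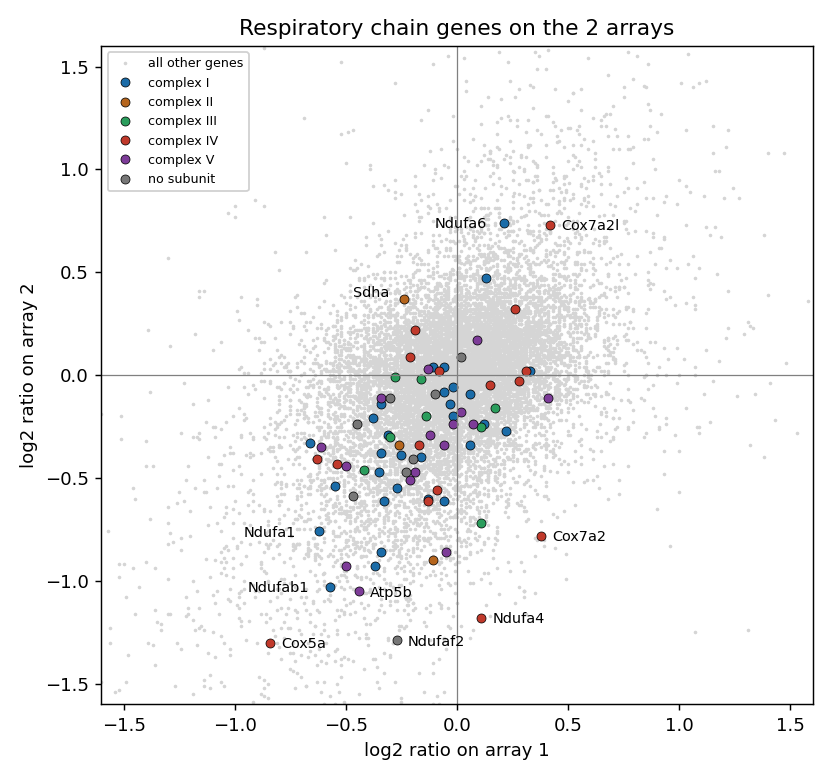
Log2 ratio of each respiratory chain gene on array 1 (x axis) and array 2 (y axis), coloured by complex, over all other genes in grey, with genes beyond 1.6 on either array left out of view. Of the 81 coloured points 52 lie at the lower left, where both arrays are negative, and 8 in the upper right, led by Cox7a2l and Ndufa6.

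By complex, the medians lay on the negative side for each of the 5 on both arrays. Complex II, with only 3 genes, had a median of -0.30, with -0.24 on array 1 and -0.34 on array 2. Complex I stood at -0.288 (-0.145 and -0.31), complex V at -0.215 (-0.125 and -0.315), complex III at -0.158 (-0.15 and -0.225) and complex IV at -0.13 (-0.085 and -0.195). Negative on both arrays were 21 of 30 genes in complex I, 2 of 3 in complex II and 5 of 8 in complex III. In complex IV it was 6 of 16 and in complex V 11 of 16. Complex IV, at 37.5%, was thus near the 33.6% of all genes. It also had 3 genes (18.8%) positive on both arrays, where 29.6% of all genes were. Complex I had 3 as well, complex V had 1 and complexes II and III had 0.

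Differences between complexes were at most 0.155 on either array. Complex I lay below complex IV by 0.06 on array 1 and 0.115 on array 2, and complex IV above complex V by 0.04 and 0.12. The order of complex I and complex III turned between arrays, with a difference (I minus III) of 0.005 on array 1 and -0.085 on array 2, and so did the orders of I and V and of III and V. The widest gap, complex II minus complex IV, was -0.155 and -0.145 on the arrays, and it rests on 3 genes of complex II. No test was made of these differences, since genes are not replicates and 2 arrays cannot give an exact two-sided sign test a p below 0.5.

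**Figure D2:**
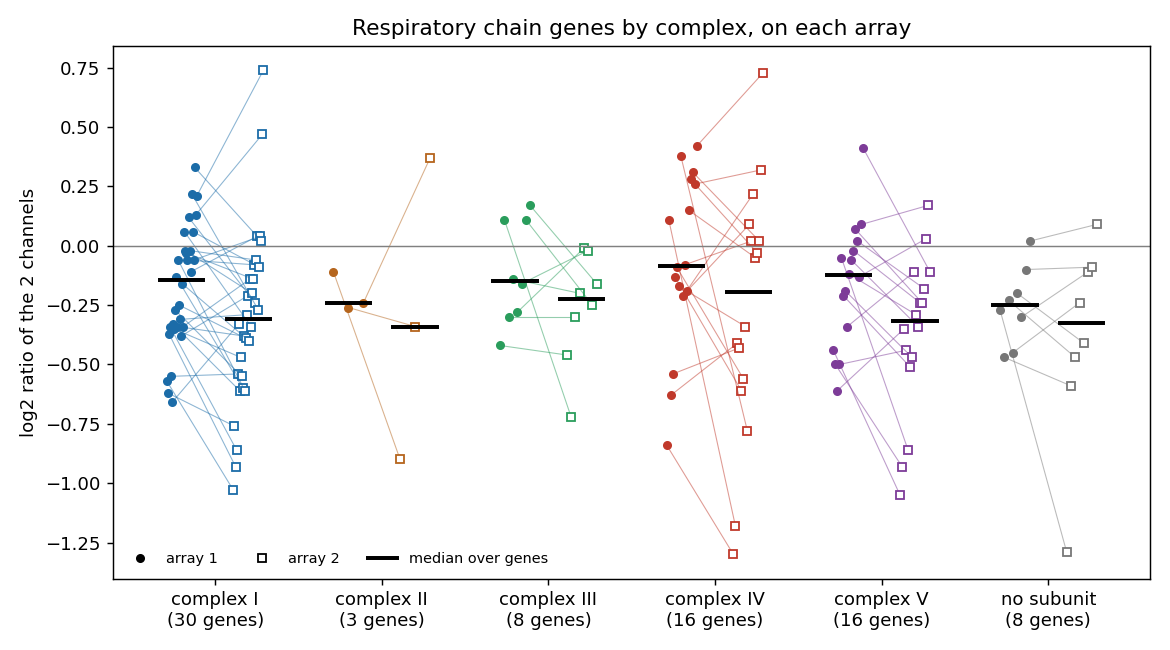
Log2 ratio (y axis) of each gene by complex (x axis), with array 1 as filled circles, array 2 as open squares, a thin line joining the values of a gene and a black bar at the median over genes. The medians lie below 0 for each complex on both arrays, and lower on array 2 than on array 1.

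Complex I is built of a peripheral arm, which holds the NADH-oxidising N module and the coenzyme Q-reducing Q module, and of a membrane arm that pumps protons. Its membrane arm subunits lay on the negative side more evenly than the rest: 14 of 16 were below 0 on both arrays, and the median was -0.31 (-0.325 on array 1 and -0.365 on array 2). For the N module 5 of 8 were negative on both, with a median of -0.223 (-0.04 and -0.31). For the Q module it was 2 of 6 (33.3%, against 33.6% of all genes), with a median of -0.03 (-0.045 and -0.05). These are descriptions of gene groups of different size, and no difference between them was tested.

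Ndufab1, the mitochondrial acyl carrier protein, also serves fatty acid and lipoic acid synthesis and binds both arms of the complex; it is counted here with the membrane arm. It read -0.57 on array 1 and -1.03 on array 2. Its mean of -0.80 ± 0.33 (SD, n = 2) was the lowest of complex I. Ndufa1, a small single-span subunit needed for assembly, read -0.62 and -0.76, close to each other, with a mean of -0.69 ± 0.10 (SD, n = 2). Both were negative on each array, and neither passed limma's test, with an adjusted p of 0.203 for Ndufab1 and 0.190 for Ndufa1.

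Accessory subunits of the distal membrane arm carry a B in their symbol. Ndufb2 read -0.37 and -0.93 and Ndufb8 -0.34 and -0.86, both much lower on array 2. Ndufb7 read -0.55 and -0.54, the closest agreement among the lower genes of the complex, with a limma adjusted p of 0.231. Ndufb3 gave -0.27 and -0.55 and Ndufb11 -0.31 and -0.29. The other B subunits lay nearer 0 on at least 1 array, with Ndufb4 at 0.06 and -0.34, Ndufb10 at -0.06 and -0.08 and Ndufb9 at -0.02 and -0.06. Ndufb5 was the only membrane arm subunit positive on both arrays, at 0.33 and 0.02, the latter no higher than the array 2 median over all probes. Thus 7 of the 9 measured B subunits were negative on both arrays, and their sizes ran over a wide range.

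The remaining membrane arm subunits were all negative on both arrays. Ndufc2 read -0.66 and -0.33 and Ndufc1 -0.34 and -0.14, both lower on array 1. Ndufa10 stood at -0.25 and -0.39, Ndufa8 at -0.16 and -0.40 and Ndufa13, also known as GRIM-19, at -0.38 and -0.21.

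The 5 core subunits measured carry the flavin or the iron-sulfur clusters of electron transfer or lie beside them. Ndufs1, the largest subunit and a carrier of iron-sulfur clusters, read -0.34 and -0.38, with a mean of -0.36 ± 0.03 (SD, n = 2). Ndufv1, which binds NADH and the flavin, read -0.06 and -0.61. Ndufv2 gave 0.06 and -0.09, Ndufs3 0.22 and -0.27 and Ndufs7, which holds the last iron-sulfur cluster before coenzyme Q, -0.11 and 0.04. Thus 2 of 5 core subunits (40.0%) were negative on both arrays, against 19 of 25 accessory subunits (76.0%) and 33.6% of all genes. The medians were -0.035 for the core and -0.295 for the accessory subunits. The core median was -0.06 on array 1 and -0.27 on array 2, against -0.25 and -0.33 for the accessory subunits, so the gap was small on array 2.

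Accessory subunits of the peripheral arm lay on both sides. Ndufa5, whose promoter is shown above, read -0.33 and -0.61, Ndufa12 -0.35 and -0.47 and Ndufs6, which binds zinc, -0.13 and -0.60. Ndufs4, whose loss in mice gives a known model of Leigh syndrome, read 0.12 and -0.24. Ndufa2, Ndufa9 and Ndufa7 were within 0.2 of 0 on both arrays. On the positive side stood Ndufa6, a partner of the acyl carrier protein in the complex, at 0.21 and 0.74, and Ndufv3 at 0.13 and 0.47. Ndufa6 had the highest mean of complex I, at 0.475 ± 0.37 (SD, n = 2), while its partner Ndufab1 had the lowest.

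**Figure D3:**
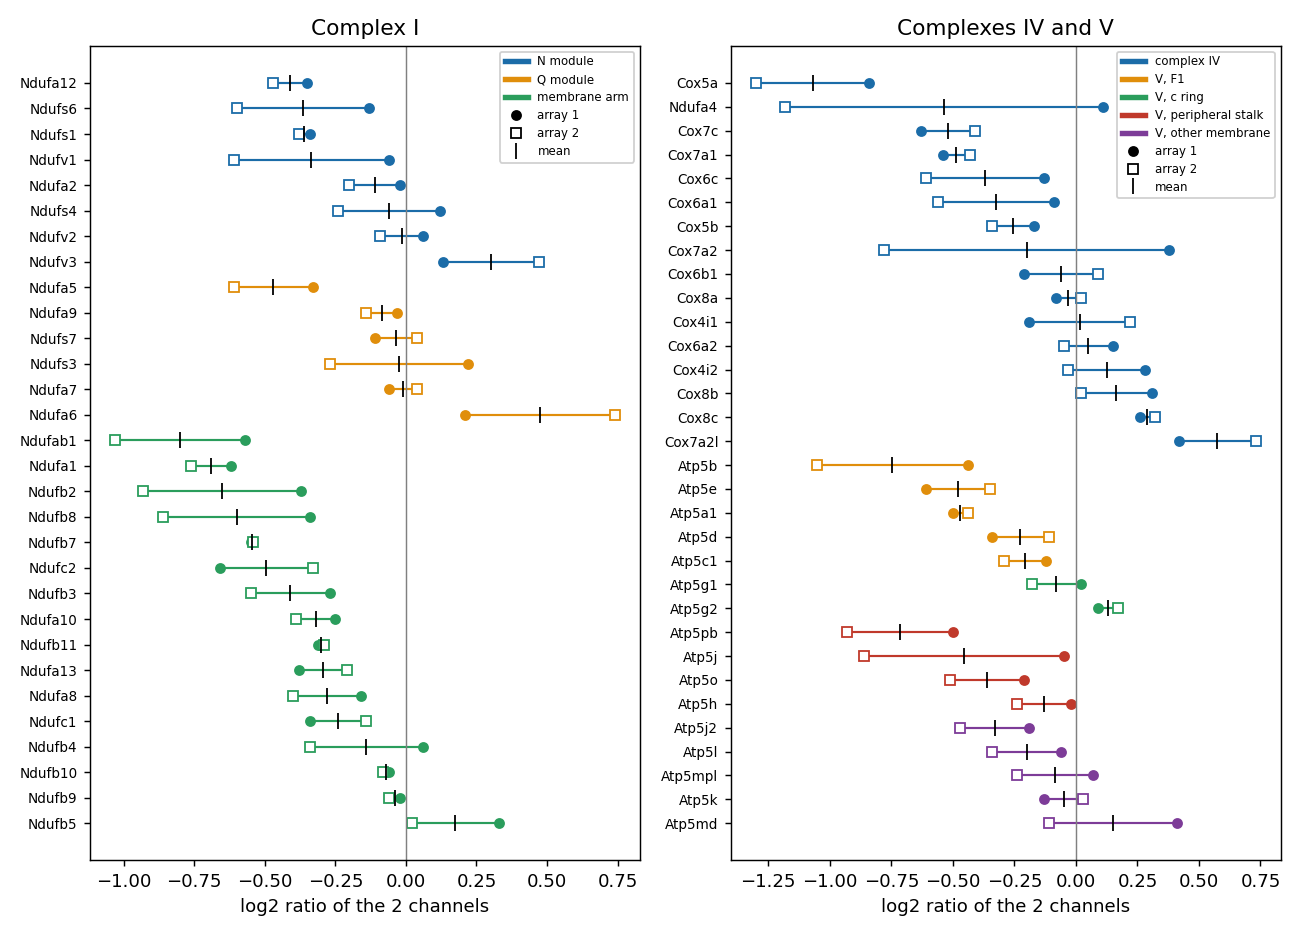
Log2 ratio (x axis) of each subunit of complex I on the left and of complexes IV and V on the right, with array 1 as a filled circle, array 2 as an open square and the mean as a tick, coloured by module. In complex I 14 of the 16 membrane arm subunits lie left of 0 on both arrays, and in complex V all 5 F1 and all 4 peripheral stalk subunits do.

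Complex II, succinate dehydrogenase, also works in the tricarboxylic acid cycle, and 3 of its subunits were measured. The flavin subunit Sdha read -0.24 on array 1 and 0.37 on array 2, so its sign turned. The iron-sulfur subunit Sdhb read -0.11 and -0.90. The membrane anchor Sdhc agreed between arrays at -0.26 and -0.34, with a mean of -0.30 ± 0.06 (SD, n = 2). The difference between these catalytic partners (Sdha minus Sdhb) was -0.13 on array 1 and 1.27 on array 2. Sdhd, the second anchor, was not analysed here.

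In complex III none of the 8 genes was positive on both arrays. Uqcr11, a small subunit, read -0.42 and -0.46, with a mean of -0.44 ± 0.03 (SD, n = 2) and a limma adjusted p of 0.285. Uqcrq, which touches the cytochrome b subunit, read -0.30 on both arrays. Uqcrb read 0.11 and -0.72, and Uqcrh, the hinge protein that helps cytochrome c bind, 0.11 and -0.25. The core proteins Uqcrc1 and Uqcrc2 stood at -0.28 and -0.01 for Uqcrc1 and -0.14 and -0.20 for Uqcrc2. Uqcrfs1, the Rieske iron-sulfur protein that carries electrons towards cytochrome c1, read 0.17 and -0.16, a mean of 0.005. Uqcr10 was at -0.16 and -0.02. The catalytic Rieske protein was thus near 0, and Uqcr11 was the lowest on the mean of both arrays.

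Complex IV, cytochrome c oxidase, held both ends of the whole set. Cox5a, a subunit on the matrix side, read -0.84 on array 1 and -1.30 on array 2. Its mean of -1.07 ± 0.33 (SD, n = 2) is a 2.1-fold difference, with a 95% interval half-width of 0.468 and a limma adjusted p of 0.171. Cox7a2l, a relative of the Cox7a subunits that links complexes III and IV in supercomplexes, read 0.42 and 0.73, a mean of 0.575 ± 0.22 (SD, n = 2) with a limma adjusted p of 0.250. Cox5a was low and Cox7a2l high on both arrays.

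Of the 11 genes of complex IV that are not tissue forms, 5 (45.5%) were negative on both arrays and 1 (9.09%) positive on both. Over all genes these shares were 33.6% and 29.6%. The sign differed for the other 5 of the 11, and this split of complex IV was made after the values were seen. Cox7c read -0.63 and -0.41, Cox6c -0.13 and -0.61 and Cox5b, which binds zinc, -0.17 and -0.34. Ndufa4 gave 0.11 and -1.18 and Cox7a2 0.38 and -0.78, the widest disagreements between the arrays in the whole set, so no side is given for these genes. Cox6b1, which faces the intermembrane space, read -0.21 and 0.09.

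Several subunits of complex IV exist as a broadly expressed form and a form of particular tissues, mostly striated muscle, lung or testis. Cox4i1, the broad form, read -0.19 and 0.22, and its lung form Cox4i2 0.28 and -0.03. The broad Cox6a1 stood at -0.09 and -0.56 and the muscle form Cox6a2 at 0.15 and -0.05. For the Cox8 forms, the broad Cox8a read -0.08 and 0.02, the muscle form Cox8b 0.31 and 0.02 and the testis form Cox8c 0.26 and 0.32. The muscle form Cox7a1 was the exception among tissue forms, at -0.54 and -0.43 with a mean of -0.485 ± 0.08 (SD, n = 2). Over the 5 tissue forms the median was 0.125, with 2 positive and 1 negative on both arrays, and it turned sign between arrays (0.26 on array 1 and -0.03 on array 2). Over the other 11 genes it was -0.255 (-0.13 on array 1 and -0.41 on array 2), a split made after the values were seen. Whether the tissue forms are expressed in these cells cannot be told from ratios, and Cox6b2 was not analysed here.

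Complex V consists of the catalytic F1 head, a peripheral stalk that holds it, and a membrane part with a ring of c subunits. All 5 F1 subunits were negative on both arrays, and their median was -0.47 (-0.44 on array 1 and -0.35 on array 2). The catalytic beta subunit Atp5b read -0.44 and -1.05, with a mean of -0.745 ± 0.43 (SD, n = 2), the lowest of the complex. Its partner alpha, Atp5a1, agreed between arrays at -0.50 and -0.44, and the small epsilon subunit Atp5e read -0.61 and -0.35. The central stalk subunits gamma, Atp5c1, and delta, Atp5d, were smaller in size, at -0.12 and -0.29 for Atp5c1 and -0.34 and -0.11 for Atp5d.

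The 4 peripheral stalk subunits were also negative on both arrays, and their median was -0.408 (array 1, -0.13; array 2, -0.685). Atp5pb, the b subunit, read -0.50 and -0.93, with a mean of -0.715 ± 0.30 (SD, n = 2) and a limma adjusted p of 0.221. Atp5o, the subunit that confers sensitivity to oligomycin, read -0.21 and -0.51, and Atp5j, coupling factor 6, -0.05 and -0.86. Atp5h, the d subunit, was at -0.02 and -0.24. All 4 read lower on array 2.

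The c ring genes lay close to 0. Atp5g1 and Atp5g2 encode an identical mature c subunit with different import sequences, and they read 0.02 and -0.18 for Atp5g1 and 0.09 and 0.17 for Atp5g2. Atp5g2 was the only complex V gene positive on both arrays. Atp5g3 was not analysed here. Of the other membrane subunits, Atp5j2 read -0.19 and -0.47, Atp5l -0.06 and -0.34, Atp5mpl 0.07 and -0.24 and Atp5k -0.13 and 0.03. Atp5md was measured by 2 probes that disagreed, with 0.93 and -0.35 for 1 and -0.11 and 0.13 for the other, so its mean of 0.15 has no settled side.

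The genes that the symbol rule took but that encode no subunit were mostly negative too. Ndufaf2, an assembly factor of complex I, read -0.27 and -1.29, so its mean of -0.78 rests mainly on array 2. Ndufaf7 stood at -0.45 and -0.24, Ndufaf6 at -0.20 and -0.41, Ndufaf5 at -0.30 and -0.11 and Ndufaf8 at -0.10 and -0.09. Ndufaf3 read 0.02 and 0.09. The probes annotated to pseudogenes read -0.47 and -0.59 for Ndufs5-ps and -0.23 and -0.47 for Atp5k-ps1, lower than the Atp5k probe itself. Probe sequences were not used here, so whether a pseudogene probe also measures its parent gene was not tested. Leaving these 8 out, both arrays were negative for 45 of 73 genes and positive for 7, and the median was -0.225.

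Other genes of the pathway were described from lists of known members, with 0 genes passing limma's adjusted p of 0.05 in any list. Of 9 electron carriers, further subunits and related genes, Atpif1 and Hccs among them, 7 (77.8%) were negative on both arrays and 0 positive. Of all genes 33.6% were negative and 29.6% positive on both. The median of the 9 genes was -0.495 (-0.41 on array 1 and -0.55 on array 2). Cycs, the somatic cytochrome c that carries electrons between complexes III and IV, was the lowest at -0.41 and -1.21. The testis form Cyct was the highest, at -0.09 and 0.005. Cyc1, the cytochrome c1 subunit of complex III outside the symbol rule, read -0.23 and -0.39, and Atpif1, the inhibitor of ATP synthase, -0.82 and -0.53. The mitochondrially encoded subunits had 0 named probes in the data used here, so the nuclear subunits cannot be set against their mitochondrial partners.

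Among 32 assembly factors of all complexes, which include the 6 Ndufaf genes above, 16 were negative and 8 positive on both arrays. Their median was -0.11 (-0.17 on array 1 and -0.055 on array 2), against -0.225 for the 73 subunits (-0.13 and -0.29), so which lay nearer to 0 turned between arrays. The lowest was Ndufaf2 and the highest Surf1, an assembly factor of complex IV, at 0.50 and 0.65. Of 7 genes of coenzyme Q synthesis 3 (42.9%) were negative and 2 (28.6%) positive on both, too few to set against the shares of all genes. Coq7, a hydroxylase of the pathway, was lowest at -0.68 and -1.51, and the kinase-like Coq8a highest at 0.43 and 1.01. Of 15 regulators of mitochondrial biogenesis 6 were negative (40.0%) and 4 positive (26.7%) on both, near the shares of all genes, with a median of -0.12 (-0.13 on array 1 and -0.03 on array 2). The lowest of them was Pprc1, a coactivator of the PGC-1 family, at -0.60 and -1.70, and the highest Polg2, the accessory subunit of the mitochondrial DNA polymerase, at 0.61 and 0.97. Nrf1, whose motif was searched above, read -0.20 and -0.26, Gabpa -0.45 and -0.83 and Tfam, which packages mitochondrial DNA, -0.87 and 1.59, with its sign turned between arrays.

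Set beside other mitochondrial groups, the subunits were not alone on the negative side. The 29 genes of protein import had their median at -0.33 (-0.11 on array 1 and -0.51 on array 2), from Hspd1, the matrix chaperonin, at -0.81 and -1.72 to Grpel2 at 0.01 and 0.52. Exchange carriers, porins and membrane-shaping genes had a median of -0.29 over 17 (-0.18 on array 1 and -0.40 on array 2), with Ckmt1 lowest at -0.60 and -1.0 and Mfn1 highest at 0.35 and 0.38. The tricarboxylic acid cycle and pyruvate dehydrogenase genes gave -0.185 over 17 (-0.11 and -0.32), from Idh3a at -0.90 and -1.30 to Idh2 at 0.46 and 0.845. Mitochondrial ribosomal protein genes gave -0.16 over 67 (-0.06 and -0.26), with 32 (47.8%) negative and 8 (11.9%) positive on both arrays. Over all genes these shares were 33.6% and 29.6%. Cytosolic ribosomal protein genes lay on the other side, with a median of 0.105 over 66, and 31 (47.0%) positive against 10 (15.2%) negative on both. The 18 glycolysis genes had their median at -0.139 (-0.297 on array 1 and 0.035 on array 2), from Hk2 at -0.495 and -1.0 to Aldoc at 0.14 and 0.62. No difference between these lists was tested.

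**Figure D4:**
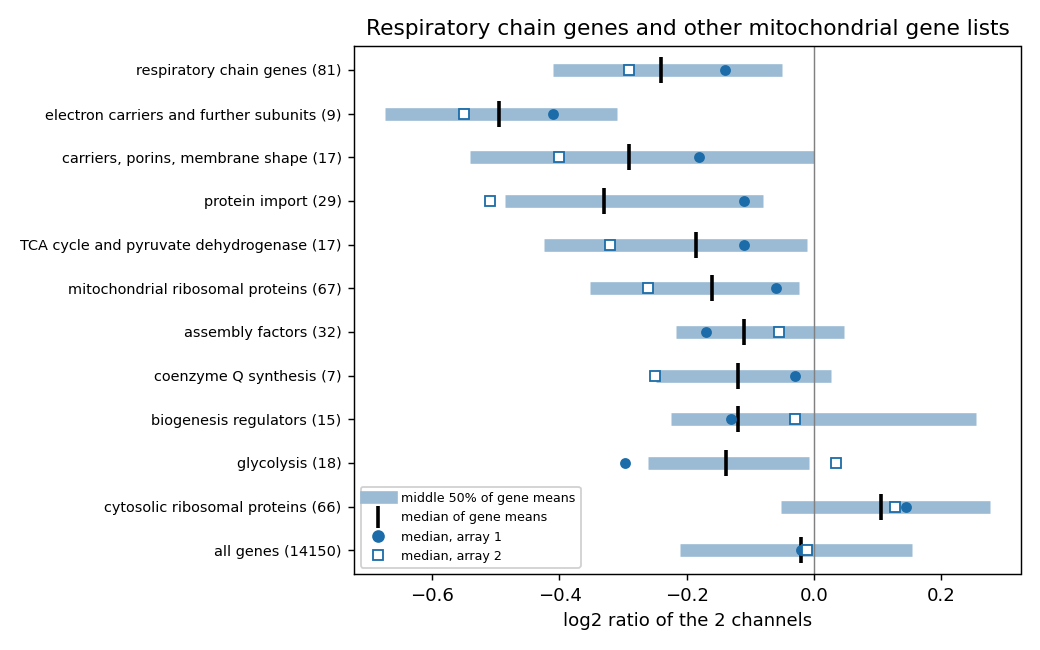
Median log2 ratio (x axis) of the respiratory chain genes, of other gene lists and of all genes, with the number of genes in brackets, as a black tick for the gene means, a filled circle for array 1 and an open square for array 2, over a bar for the middle 50% of gene means. The respiratory chain median of -0.24 lies between those of protein import (-0.33) and of the mitochondrial ribosome (-0.16), while on array 1 it lies below both.

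Markers of proliferation lay on the same side as the respiratory genes and farther from 0, with a median at -1.10 (-0.98 on array 1 and -1.16 on array 2). Negative on both arrays were 10 of 11 (90.9%), against 33.6% of all genes. Markers of CD8 T cells were mostly positive, 5 of 8 (62.5%) on both arrays, against 29.6% of all genes. The median of these CD8 markers was 0.23 (0.12 on array 1 and 0.435 on array 2). Zap70 was negative on both, at -0.31 and -0.31, and Thy1 and Cd3e turned sign between arrays. B cell markers were positive on both arrays for 5 of 7 (71.4%), with a median of 0.165 (0.11 and 0.32). For NK cells 2 of 3 markers were negative on both, led by Klrb1c at -0.77 and -1.88. The remaining NK marker, Klra8, lay on the positive side at 0.86 and 0.06. For myeloid cells 2 of 4 were negative on both, and Lyz2 was positive at 0.275 and 0.145. Lists of 3 or 4 markers are too small to compare with the negative share of 33.6% over the whole array. For dendritic cells 2 of 3 were negative on both, with a median of -0.29 that came mainly from array 1 (-0.42, against -0.03 on array 2). The CD4 T cell markers had a median of 0.07 over 3 genes, with its sign turned between arrays (-0.11 and 0.15), and the single erythroid marker measured, Hba-a1, read -0.31 and 0.30. Ratios hold no summed level and no marker at 0, and the part of these cells in the respiratory chain values was not tested. In bulk RNA, more cells of a type and more RNA per cell cannot be told apart.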

How the data were processed

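The data were 2 two-channel arrays of mouse CD8+ T cells after 2 and after 1 stimulation. The deposited table holds 1 signed value per probe and array, which was used as a log2 ratio; base and numerator are not stated in the sources used here, nor are the scanner, background correction, normalization and filters of the authors. Array medians were 0.01 and 0.02, so a shift of all genes would not be seen. Of 21919 probes 21427 had both values and 15998 had 1 symbol in the platform annotation, 288 several and 5633 none. All 81 member genes were found by Entrez ID in a RefSeq gene table under the same symbol.

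Probes of a gene were averaged. limma 3.58.1 in R 4.3.3 tested the mean of both arrays against 0 (two-sided) with Benjamini-Hochberg adjustment over all 21427 probes, with 1 residual degree of freedom and 3.43 prior ones. Its steps were tested on simulated data. Only 248 probes had equal values on the arrays, which are therefore no copies of each other. Complex medians and counts were set beside those of all genes, with no test. Members and lists were chosen with earlier results of these data known. Values on both arrays are given for the 3 lowest and 3 highest genes of each complex, core subunits, paired forms, genes whose probes disagree and genes that are no subunit, and for the lowest and highest gene of each list; the others given were chosen after their values were seen. Alternatives were centring, quantile normalization, gene and probe handling, the prior, thresholds and leaving out each array.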

Additional observations from a re-analysis of the deposited data

How the results depend on the processing

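The medians of all members and of each complex kept the negative side under every alternative run for them. Centring on array medians and quantile normalization moved these medians by less than their spread between arrays. As the array medians were 0.01 and 0.02, centring could shift values only slightly and tests little. It still took the number of genes positive on both arrays from 8 to 6, since Ndufb5 and Cox8b read only 0.02 on array 2. With 1 array left out, the median of complex I ranged from -0.31 to -0.145 and that of complex III from -0.225 to -0.15, the number of positive genes from 15 to 22 and the number at least 2-fold from 0 to 5; fewer arrays enter these rules. Read as natural logs 1 gene, Cox5a, was at least 2-fold on both arrays. Read as log2, 2 genes were at least 1.5-fold on both. Without moderation 1 probe passed an adjusted p of 0.05, that of Uqcrq, whose identical values left no spread to test against. On the negative side 7 probes passed an unadjusted p of 0.05, against 19 with moderation, since each probe then has 1 degree of freedom. The shares of all probes without moderation are not given here, so these counts cannot be set against them. Leaving out the tissue forms, chosen after seeing the data, put complex IV at -0.255. Counting Ndufa4 in complex I, also not planned, put complex IV at -0.06 and complex I at -0.295. The mean of no member that had the same sign on both arrays turned its sign under centring or quantile normalization. For centring this follows from the small array medians. The ratio within an array already pairs both stages. No paired analysis was possible beyond that, because the arrays form 1 group with no replicate block to add.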
